A study of Mus musculus with 10 samples.

Results

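Adipocyte genes were examined in RNA from pieces of the mouse pancreas tail. The set comprised 10 genes, Adipoq, Lep, Retn, Cfd, Plin1, Plin4, Cidec, Lpl, Fabp4 and Car3, chosen by symbol from the 24421 genes of the count table. All 10 were in the table and all 10 passed the filter on low counts, which left 13688 genes to be tested. The 10 libraries came from 10 female mice aged 12 weeks, with 1 library per mouse. All mice carried Ptf1aCreER, a tamoxifen-inducible Cre recombinase driven by a gene of acinar cells, the cells that make digestive enzymes, and nTnG, a nuclear fluorescent reporter. They differed in the insulin receptor gene Insr. The 3 libraries labelled Insr WT (WT-2404, WT-1860 and WT-2067, named by group and mouse number) had genotype Insr w/w, with 0 floxed alleles. The 3 labelled Insr Het (Het-2066, Het-1770 and Het-2042) were Insr w/f, with 1 floxed allele that Cre can remove. The 4 labelled Insr KO (KO-2079, KO-2070, KO-2124 and KO-2126) were Insr f/f, with 2. One more WT mouse counted in the labels was not analysed here. The Cre driver targets acinar cells, so Insr of adipocytes is not the target of the design, and RNA of the whole tissue piece was sequenced.

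Adipocytes store triglyceride in a lipid droplet and release hormones. Lipoprotein lipase (Lpl) frees fatty acids from circulating lipoproteins, the fatty acid binding protein Fabp4 carries them in the cell, and perilipins and Cidec coat and enlarge the droplet. Adiponectin (Adipoq), leptin (Lep), resistin (Retn) and adipsin (Cfd) are secreted, and Car3 is a cytosolic carbonic anhydrase abundant in fat. In a pancreas, fat cells lie between the lobules and around the organ. Adipoq, Plin1 and Cidec are largely restricted to adipocytes, whereas Fabp4 is also made by capillary endothelial cells and macrophages, and Lpl by macrophages among other cells. Insulin acting on adipocytes promotes storage of lipid and restrains its release.

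The promoters of genes that varied together across the libraries (values below) are shown first, because RefSeq holds the start sites of 5 of them. In the RefSeq promoter set of build GRCm38.p6, 7 of the 10 genes were found, with 8 promoters in all because Cidec has more than 1 start. Each covers 250 bases before and 50 after the start, 5′ to 3′ along the gene. Capitals mark each match to TTGCNNAA, the core to which C/EBP factors bind, regulators of the adipocyte programme. Adipoq lies on the plus strand at chr16:23146286-23146585, Plin1 on the minus strand at chr7:79732727-79733026, Cidec (its downstream start) on the minus strand at chr6:113434715-113435014, Cfd on the plus strand at chr10:79890603-79890902 and Lep on the plus strand at chr6:29059971-29060270.
Adipoq: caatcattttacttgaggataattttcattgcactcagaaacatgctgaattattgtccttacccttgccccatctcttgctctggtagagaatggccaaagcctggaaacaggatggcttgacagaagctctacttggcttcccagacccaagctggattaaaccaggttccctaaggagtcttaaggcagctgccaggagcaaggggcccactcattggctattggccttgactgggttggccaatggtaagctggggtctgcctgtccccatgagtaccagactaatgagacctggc
Plin1: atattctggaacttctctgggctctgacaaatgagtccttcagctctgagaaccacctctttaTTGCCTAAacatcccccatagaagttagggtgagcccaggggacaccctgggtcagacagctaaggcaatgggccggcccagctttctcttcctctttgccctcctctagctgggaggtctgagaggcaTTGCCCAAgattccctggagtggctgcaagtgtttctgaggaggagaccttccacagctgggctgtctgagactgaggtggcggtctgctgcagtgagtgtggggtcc
Cidec: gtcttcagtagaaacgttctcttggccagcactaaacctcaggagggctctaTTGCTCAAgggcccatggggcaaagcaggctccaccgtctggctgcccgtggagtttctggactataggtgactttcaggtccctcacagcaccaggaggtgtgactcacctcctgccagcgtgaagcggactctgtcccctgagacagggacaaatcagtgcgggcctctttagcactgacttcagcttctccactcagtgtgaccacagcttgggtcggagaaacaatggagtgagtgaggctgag
Cfd: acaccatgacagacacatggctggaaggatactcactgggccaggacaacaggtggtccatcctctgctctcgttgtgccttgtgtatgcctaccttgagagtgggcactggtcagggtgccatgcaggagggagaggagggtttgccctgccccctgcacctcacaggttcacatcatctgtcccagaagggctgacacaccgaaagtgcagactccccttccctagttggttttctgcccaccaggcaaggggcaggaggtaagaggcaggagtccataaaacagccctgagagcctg
Lep: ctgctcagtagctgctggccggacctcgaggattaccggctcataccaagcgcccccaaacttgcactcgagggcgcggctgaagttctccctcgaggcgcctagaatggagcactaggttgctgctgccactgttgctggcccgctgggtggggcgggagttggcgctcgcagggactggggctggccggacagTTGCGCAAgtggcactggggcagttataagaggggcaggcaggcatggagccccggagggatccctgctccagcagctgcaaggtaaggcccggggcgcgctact
On either strand, TTGCNNAA was found in 3 of the 8 promoters, those of Cidec, Lep and Plin1, against 10.8% of all 32851 promoters of this length. The Plin1 promoter held it at -187 and at -58 bases from the start, the Cidec promoter at -198, and the Lep promoter at -55, where the match reads the same on both strands. AGGTCA, the repeat unit bound by nuclear receptors such as PPARγ, was in 0 of the 8 and in 16.3% of all promoters. TATAAA was in 0 of the 8 and in 13.6% of all. No match was found in the printed Adipoq and Cfd sequences. Only TTGCNNAA matched, so no matches of different motifs overlap, and a match describes the letters only.

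Sequencing depth was 11718559 to 19024351 gene counts per library. Levels are given as counts-per-million (CPM) of the library size scaled by TMM, edgeR's method of making libraries comparable, unless stated otherwise. The TMM factors mattered here, as WT-2404 had a factor of 3.53 and the others 0.596 to 1.56. A list of 26 digestive enzyme genes took 15.7% of the counts of WT-2404, 58.3% of those of WT-1860 and 62.3% to 77.3% in the other 8. Without scaling, the median gene tested differed by -1.17 on the log2 scale between KO and WT and by -1.36 between Het and WT, so directions and the order of libraries below hold with TMM scaling, and the values by library size alone are given beside the main ones that they turn. Insr itself was at 21.0 to 40.5 CPM in WT, 28.2 to 44.2 in Het and 22.7 to 35.4 in KO libraries, and gene-level counts of the whole piece do not check the labels.

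The genes span a wide range of abundance. Per kilobase of transcript and averaged over the 10 libraries, Fabp4 stood at 50.8 CPM per kb, Lpl at 21.3, Car3 at 8.60, Cfd at 4.95, Adipoq at 2.15, Plin4 at 1.56, Cidec at 1.37, Retn at 0.465, Lep at 0.343 and Plin1 at 0.301. Over the libraries the Fabp4 level per kb ran from 33.1 to 87.5, apart from that of Lpl (13.6 to 31.2), while the ranges of Lpl and Car3 (0.944 to 18.2) overlapped. Neighbours from Car3 downward had overlapping ranges over the libraries. Lpl and Fabp4 supplied 66.1% to 91.4% of the summed counts of the 10 genes, so the other 8 genes rest on few reads. Adipoq had 7 to 92 counts per library, Cidec 6 to 79, Plin1 1 to 32, Lep 1 to 47 and Retn 1 to 25, and none was at 0 in any library. The floor for an undetected gene was set at 3 counts. Plin1 and Lep in WT-1860, and Retn in WT-2404, Het-1770 and KO-2070, were at or below that floor. At these counts, chance in sampling reads adds to the spread between mice. The Adipoq level of 0.597 CPM by library size alone in WT-1860, from 7 counts, had a Wilson 95% interval of 0.289 to 1.23, and that of 4.84 in Het-2042, from 92 counts, one of 3.94 to 5.93. These intervals cover counting error only.

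Among the secreted products, Adipoq (chromosome 16, 23146536 to 23157968, plus strand, GRCm38.p6) had 1.27 CPM in WT-2404, 0.383 CPM in WT-1860 and 3.12 CPM in WT-2067. It stood at 2.89, 2.14 and 5.65 CPM in Het-2066, Het-1770 and Het-2042, and at 3.21, 6.19, 1.15 and 1.72 in KO-2079, KO-2070, KO-2124 and KO-2126. The 3 groups overlapped, with WT-1860 lowest and KO-2070 highest with TMM (Het-2042 highest by library size alone). Lep (chromosome 6, 29060221 to 29073876, plus strand), which signals fat stores to the brain, was at 0.367, 0.0547 and 1.78 CPM in the WT libraries, in the order used for Adipoq. It was at 0.877, 1.49 and 2.88 CPM in the Het and at 1.30, 0.658, 0.369 and 1.41 in the KO libraries. Its lowest value, in WT-1860, came from 1 count. Retn (chromosome 8, 3655770 to 3659818, plus strand) was at 0.0501, 0.765 and 0.796 CPM in WT, at 0.526, 0.0932 and 1.53 in Het and at 0.618, 0.132, 0.276 and 0.505 in KO libraries. It was the most variable gene of the set, with a biological coefficient of variation of 0.771, above that of 98.8% of the genes tested. Cfd (chromosome 10, 79890853 to 79892655, plus strand), a serine protease of the alternative complement pathway, was at 2.27, 0.765 and 3.67 CPM in the WT, 7.89, 4.01 and 11.3 in the Het and 5.56, 6.06, 2.26 and 1.82 in the KO libraries. All 3 Het values of Cfd lay above all 3 WT values on this scale, while KO overlapped both.

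Of the droplet proteins, Plin1 (chromosome 7, 79721164 to 79732904, minus strand), which guards the droplet against lipases, was at 0.401, 0.0547 and 1.22 CPM in WT libraries. It stood at 1.4, 0.466 and 1.96 CPM in Het and 0.433, 1.45, 0.276 and 0.808 in KO libraries. The WT-1860 value again came from 1 count. Cidec (chromosome 6, 113424634 to 113435760, minus strand), which fuses droplets, was at 1.32, 0.328 and 2.76 CPM in WT, 3.42, 2.52 and 4.23 in Het and 2.47, 3.56, 1.24 and 1.72 in KO libraries. Both genes were lowest in WT-1860 and highest in Het-2042, except that Cidec was highest in WT-2404 by library size alone. Plin4 (chromosome 17, 56100587 to 56109948, minus strand), a perilipin of small droplets, did not share that order on either scale. It was at 2.57, 5.30 and 8.88 CPM in WT, 9.47, 17.0 and 12.8 in Het and 3.83, 7.90, 11.5 and 10.5 in KO libraries, lowest in WT-2404 and highest in Het-1770 with TMM, and lowest in KO-2079 (3.41 CPM) and highest in KO-2124 (15.7 CPM) by library size alone. Its exons overlap those of Hdgfl2 on the opposite strand, and use of strand in counting is not given in the sources used here, so its level is uncertain to that extent.

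Lpl (chromosome 8, 68880555 to 68906932, plus strand) was at 78.9, 66.6 and 69.8 CPM in the WT, 80.9, 105 and 84.1 in the Het and 98.5, 128, 56.1 and 109 in the KO libraries. Fabp4 (chromosome 3, 10204342 to 10208616, minus strand) was at 37.6, 31.0 and 29.6 CPM in WT, 52.4, 46.7 and 54.4 in Het and 40.2, 51.4, 78.4 and 32.9 in KO libraries. These were the steadiest genes of the set with TMM, with biological coefficients of variation of 0.266 and 0.264 against a median of 0.269 over all genes tested. Over the libraries Lpl spanned 2.29 times and Fabp4 2.65 times with TMM. By library size alone they spanned 4.55 and 6.77 times, and Plin4 4.59 times. With TMM, Lpl had its lowest and Fabp4 its highest level in KO-2124, whereas by library size alone Lpl was lowest in WT-2067 and Fabp4 highest in WT-2404. Car3 (chromosome 3, 14863538 to 14872381, plus strand) was at 7.0, 1.59 and 21.8 CPM in WT, 15.3, 14.1 and 30.5 in Het and 12.0, 23.8, 6.87 and 11.5 in KO libraries, lowest in WT-1860 and highest in Het-2042.

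**Figure D1:**
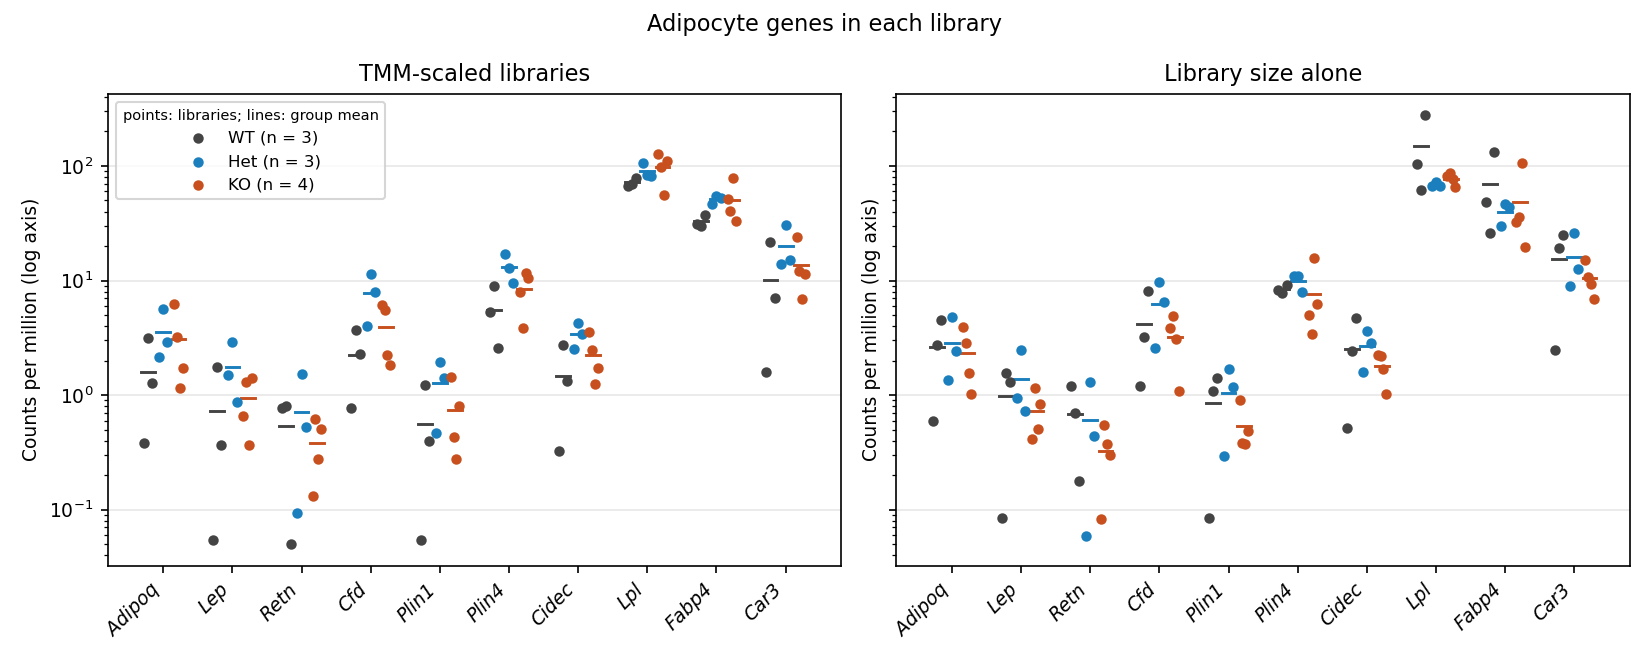
Level of each adipocyte gene in counts-per-million on a log axis, with 1 point per library (3 WT, 3 Het, 4 KO) and a line at each group mean, TMM-scaled on the left and by library size alone on the right. The WT libraries spread widely for Adipoq, Lep, Plin1, Cidec and Car3 on both scales, and the 279 CPM of Lpl in WT-2404 by library size alone falls to 78.9 CPM with TMM scaling.

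The 10 genes together averaged 127 ± 18.7 CPM per WT library (SD, n = 3), 193 ± 17.1 CPM per Het library (SD, n = 3) and 182 ± 32.1 CPM per KO library (SD, n = 4). Its WT range of 107 to 143 CPM lay below the Het range of 175 to 209 and the KO range of 158 to 230. That order depends on the scaling. Unscaled, the sums were 253 ± 185 CPM for WT (SD, n = 3), 149 ± 28.1 CPM for Het (SD, n = 3) and 153 ± 46.5 CPM for KO (SD, n = 4). Without Lpl and Fabp4, the other 8 genes summed to 22.8 ± 18.6 CPM per WT library (SD, n = 3), 51.5 ± 16.8 CPM per Het library (SD, n = 3) and 33.3 ± 11.3 CPM per KO library (SD, n = 4), with overlapping ranges. The WT mean of these 8 was 12.2 CPM without WT-2067, and unscaled the means were 35.7 CPM for WT, 40.7 for Het and 27.0 for KO, which puts KO below WT. In bulk tissue, fewer adipocytes in the piece and less RNA per adipocyte cannot be told apart.

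KO libraries were set against WT libraries first, to see how these genes stood where both Insr alleles were floxed. Of the 10 genes, 9 had a positive log2 fold change, beside 51.8% of all genes tested, and Retn a negative one. With library size as the sole scaling all 9 turned negative, from -0.93 for Lpl to -0.15 for Plin4. Fabp4 had the smallest p, averaging 32.8 ± 4.26 CPM over the WT libraries (SD, n = 3) and 50.7 ± 19.96 CPM over the KO libraries (SD, n = 4), with overlapping ranges. Its log2 fold change was 0.63 (SE 0.27), with an adjusted p of 0.187 in edgeR's quasi-likelihood test, which did not pass 0.05. Without KO-2124, where Fabp4 stood at 78.4 CPM, the estimate was 0.32 (adjusted p = 0.316 by edgeR). With 1 library left out at a time it ranged from that value to 0.79, without KO-2126. Adipoq stood at 0.92 (SE 0.70, adjusted p = 0.431 by edgeR), with 1.59 ± 1.4 CPM in WT and 3.07 ± 2.26 in KO libraries (SD, n = 3 and 4). Cfd stood at 0.80 (SE 0.57), Plin4 at 0.62 (SE 0.44), Cidec at 0.60 (SE 0.57) and Lpl at 0.45 (SE 0.27). Car3 stood at 0.41 (SE 0.69), Lep at 0.40 (SE 0.85), Plin1 at 0.34 (SE 0.85) and Retn at -0.33 (SE 0.98). The adjusted p-values of these 8 ran from 0.320 to 0.863 in edgeR. The 95% intervals of Adipoq (-0.61 to 2.46), Plin1 (-1.51 to 2.19) and Lep (-1.44 to 2.24) leave room for large changes either way.

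Counts of calls were read against all genes. In KO against WT, 0 of the 10 passed an adjusted p of 0.05, as did 0.0% of all genes tested by edgeR, and 1 of the 10, Fabp4, had an unadjusted p under 0.05 with a higher level, beside 9.6% of all genes. In 0 of the 10 did the KO and WT ranges stand apart, beside 6.74% of genes with KO above and 9.17% with KO below. Unscaled, this was 0 of the 10, beside 0.256% above and 5.64% below. DESeq2 called 0 of the 10 and 1009 of all genes, or 7.37%. The median log2 fold change of the 10 was 0.52, where that of all genes was 0.03. Set against the all-gene median of each scaling, the median of the 10 was 0.50 above it with TMM and 0.66 above it by library size alone. Of the 10, 9 lay above the all-gene median with TMM and all 10 by library size alone. Taking off the all-gene median removes much the same shift as TMM does. The values by library size alone are therefore no second check of the direction with TMM.

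**Figure D2:**
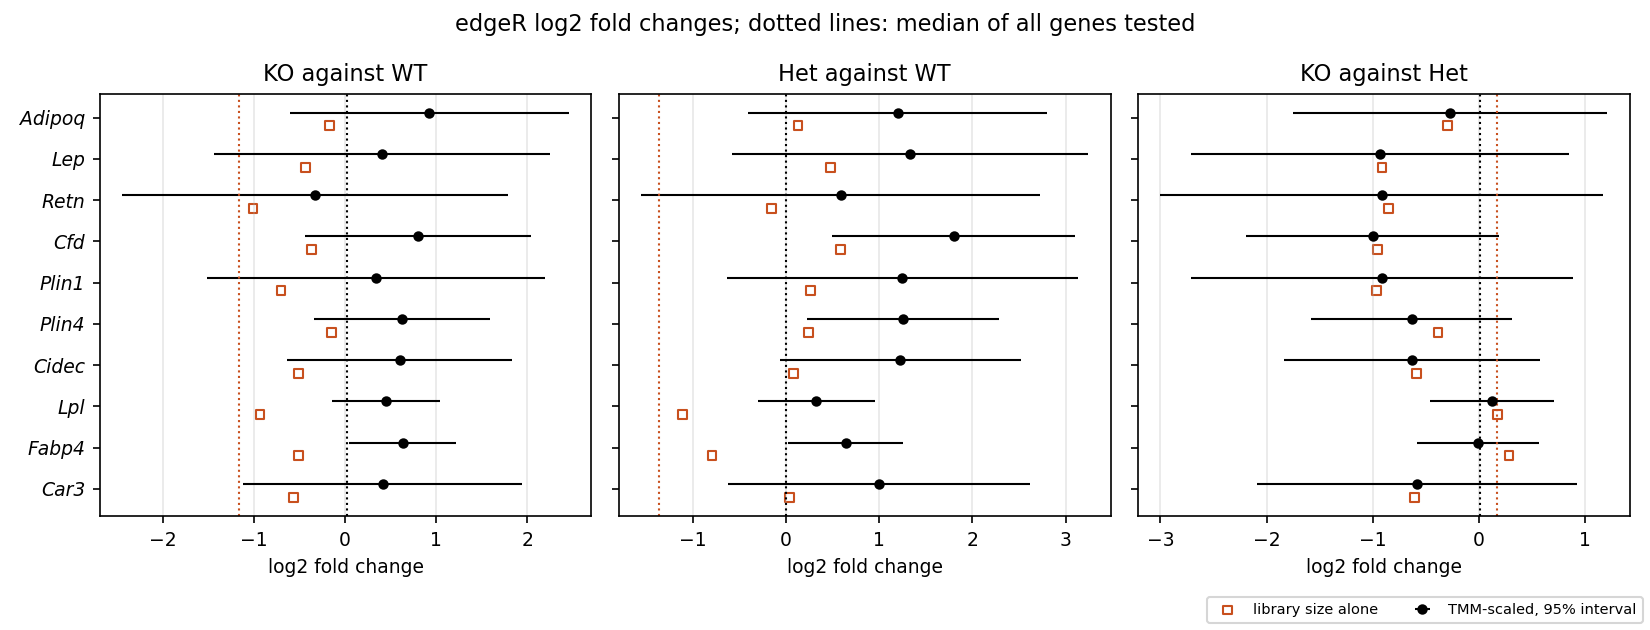
log2 fold changes of the 10 adipocyte genes in 3 comparisons, with edgeR's TMM-scaled estimates and their 95% intervals as filled points with bars, estimates by library size alone as open squares, and the median of all genes tested under each scaling as dotted lines. In KO against WT the TMM estimates of 9 genes lie right of 0 and all their library-size estimates left of 0, while the 10 squares stay right of their own dotted line at -1.17. That line holds much the same shift that TMM removes, so the place of the squares beside it is no second check of direction.

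Het libraries were then set against WT. All 10 genes had a positive log2 fold change with TMM, beside 50.3% of all genes, with a median of 1.21 against 0.0047. Unscaled, the median of the 10 was 0.11 and Lpl (-1.11), Fabp4 (-0.79) and Retn (-0.16) turned negative, where the median of all genes was -1.36. Cfd had the largest difference, at 2.24 ± 1.46 CPM in WT and 7.73 ± 3.64 in Het libraries (SD, n = 3 each), with a log2 fold change of 1.80 (SE 0.59, adjusted p = 0.183 by edgeR). Plin4 was at 5.58 ± 3.16 CPM in WT and 13.1 ± 3.8 in Het libraries (SD, n = 3 each), with 1.26 (SE 0.47, adjusted p = 0.199 by edgeR). Fabp4 was at 51.2 ± 4.00 CPM in Het libraries (SD, n = 3), with 0.64 (SE 0.28, adjusted p = 0.239 by edgeR). The estimates were 1.34 for Lep (SE 0.88), 1.25 for Plin1 (SE 0.87), 1.23 for Cidec (SE 0.60), 1.2 for Adipoq (SE 0.73), 1.0 for Car3 (SE 0.73), 0.59 for Retn (SE 0.99) and 0.33 for Lpl (SE 0.29). Cfd, Plin4 and Fabp4, 3 of the 10, had an unadjusted p under 0.05, beside 8.26% of all genes in this direction, and 0 passed after adjustment, as among all genes in edgeR (0.0%). Het libraries lay wholly above WT in 4 of the 10 (Plin4, Lpl, Fabp4 and Cfd), beside 11.3% of all genes. This held for 0 of the 10 by library size alone, beside 0.256% of all genes. DESeq2 called 0 of the 10 and 2.92% of all genes.

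KO and Het libraries were compared with each other. Here 9 of the 10 genes had a negative log2 fold change, with a median of -0.63 against 0.01 over all genes, of which 51.4% were positive. Fabp4, at -0.01 (SE 0.27), was among the 9, and it turned to 0.28 by library size alone and to 0.0025 when only KO and Het libraries entered the fit. Without Het-2042 the median of the 10 was -0.24, and Adipoq (0.24), Retn (0.32) and Fabp4 (0.0356) were positive. Cfd stood at -1.0 (SE 0.54, 95% interval -2.19 to 0.19), Lep at -0.93 (SE 0.82), Retn at -0.92 (SE 0.96), Plin1 at -0.91 (SE 0.83), Plin4 and Cidec at -0.63 (SE 0.43 and 0.55), Car3 at -0.58 (SE 0.68), Adipoq at -0.27 (SE 0.68) and Lpl at 0.12 (SE 0.27). No gene of the 10 had an unadjusted p under 0.05, beside 0.752% of all genes in either direction, and 0 passed after adjustment in edgeR, as among all genes (0.0%). DESeq2 called 0 genes of all tested. In 0 of the 10 did KO and Het ranges stand apart, beside 1.3% of genes with KO above and 1.16% with KO below. In a slope over 0, 1 and 2 floxed alleles, 9 of the 10 were positive, beside 51.9% of all genes, with a median of 0.24 per allele. The slope of Fabp4 was 0.30 (SE 0.14, adjusted p = 0.243 by edgeR), and 0 of the 10 had an unadjusted p under 0.05, beside 21.2% of all genes. After adjustment 0 of the 10 passed in edgeR, as among all genes (0.0%), and DESeq2 called 436 genes, 0 of them in the set. The median slope was -0.0075 without WT-1860, 0.0599 without WT-2404, 0.40 without WT-2067 and -0.26 by library size alone. KO against WT and Het against WT share the same 3 WT libraries.

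Single mice moved these values. With TMM, WT-2067 had the highest level among the WT libraries for 8 of the 10 genes. By library size alone this held for Lep only, and Adipoq stood at 4.49 CPM in WT-2404 and 2.74 in WT-2067. Without WT-2067, the median log2 fold change with TMM rose to 1.30 for KO against WT and 1.99 for Het against WT. Without WT-1860 the same medians were 0.27 and 0.76. Leaving out KO-2070 gave 0.34 for KO against WT, and leaving out Het-2042 gave 0.72 for Het against WT. Without WT-2067 edgeR called 1933 of the 14172 genes tested in that fit in KO against WT, 0 of them in the set. In Het against WT it called 1158 of the 14172, of which 1 was in the set, Plin4 (log2 fold change 1.77, adjusted p = 0.0477). Leaving out WT-1860 also turned Lep to -0.13, Plin1 to -0.17 and Car3 to -0.09 in KO against WT.

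**Figure D3:**
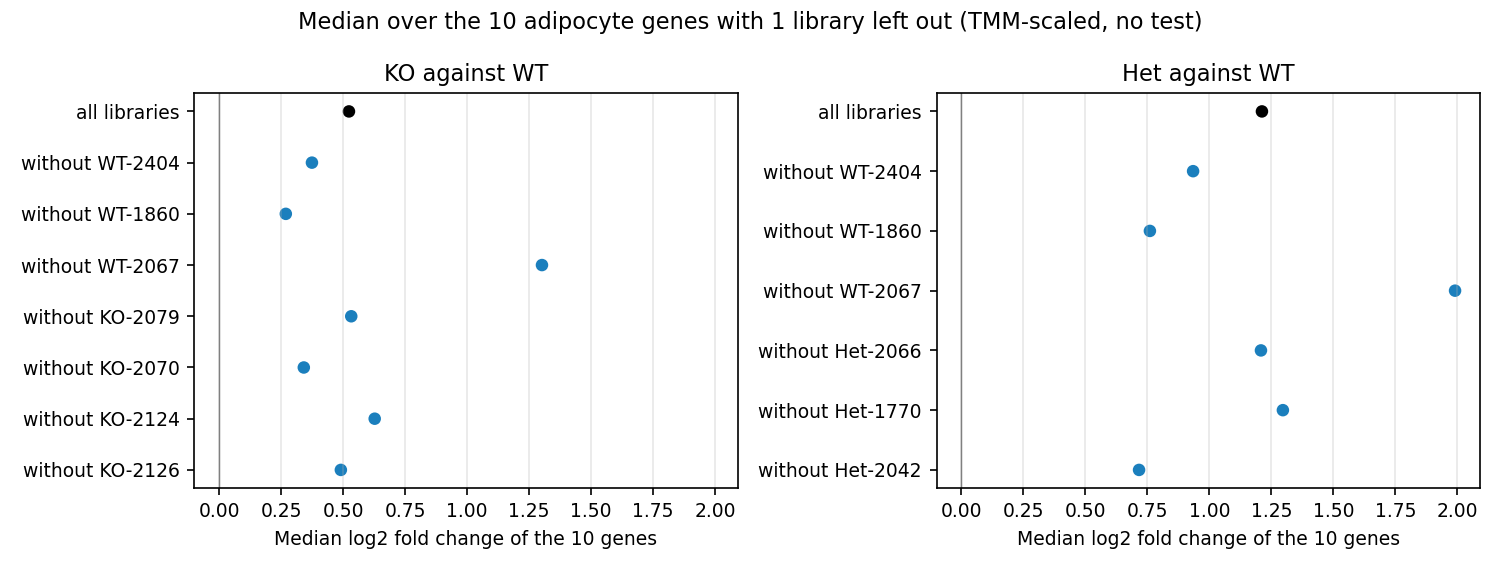
Median log2 fold change of the 10 adipocyte genes with all libraries (black) and with 1 library left out at a time (blue), TMM-scaled, for KO against WT and Het against WT. No error is drawn because the median is a description; the largest shift in both comparisons came from leaving out WT-2067, to 1.30 and 1.99.

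Across the 10 libraries, the adipocyte genes differed in how closely they followed Adipoq, with no clear break between them. By Spearman's rho, for example, Lpl (0.612) stood above Lep (0.600). Pearson's r of log2 CPM with Adipoq (n = 10 libraries, prior count of 2) was 0.960 for Cidec, 0.957 for Car3, 0.916 for Cfd, 0.900 for Plin1 and 0.785 for Lep. Their permutation p-values (two-sided, 100000 resamples), adjusted over the 9 relations, were 0.00027, 0.00036, 0.00084, 0.00137 and 0.0141, and the raw ones 3e-05, 8e-05, 0.00028, 0.00061 and 0.00784. Spearman's rho was 0.903 for Cidec, 0.915 for Car3 and 0.842 for both Cfd and Plin1, with adjusted permutation p-values of 0.0036, 0.0036, 0.00841 and 0.00841 (raw 0.0008, 0.00046, 0.00359 and 0.00374). For Lep rho was 0.600 (permutation p = 0.0742, adjusted 0.111). Without KO-2070 and WT-1860, the libraries farthest from the median of Adipoq, r was 0.95 for Cidec, 0.927 for Car3, 0.887 for Cfd, 0.787 for Plin1 and 0.851 for Lep. Unscaled, the same 5 had r of 0.939, 0.941, 0.896, 0.872 and 0.688, and as deviations from their group means 0.959, 0.944, 0.932, 0.887 and 0.712. The genotype groups held 3, 3 and 4 mice, too few for r within a group. Shuffling libraries makes no allowance for the makeup of a library and the genotype, which all genes share. With the mean pattern of Adipoq, Plin1 and Cidec described below, 16.6% of all genes had r above 0.5.

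The other 4 genes had lower r with Adipoq. It was 0.562 for Lpl (permutation p = 0.0883, adjusted 0.132), 0.288 for Plin4 (permutation p = 0.419, adjusted 0.502), 0.271 for Fabp4 (permutation p = 0.447, adjusted 0.502) and 0.118 for Retn (permutation p = 0.748, adjusted 0.748). Their rho was 0.612 for Lpl (permutation p = 0.0667, adjusted 0.111), 0.0667 for Plin4 (permutation p = 0.866, adjusted 0.866), 0.236 for Fabp4 (permutation p = 0.513, adjusted 0.577) and 0.261 for Retn (permutation p = 0.470, adjusted 0.577). Without KO-2070 and WT-1860 r became 0.249 for Lpl, 0.222 for Plin4, -0.12 for Fabp4 and 0.795 for Retn, so the r of Retn rested on those libraries. Retn had as few as 1 count in a library.

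**Figure D4:**
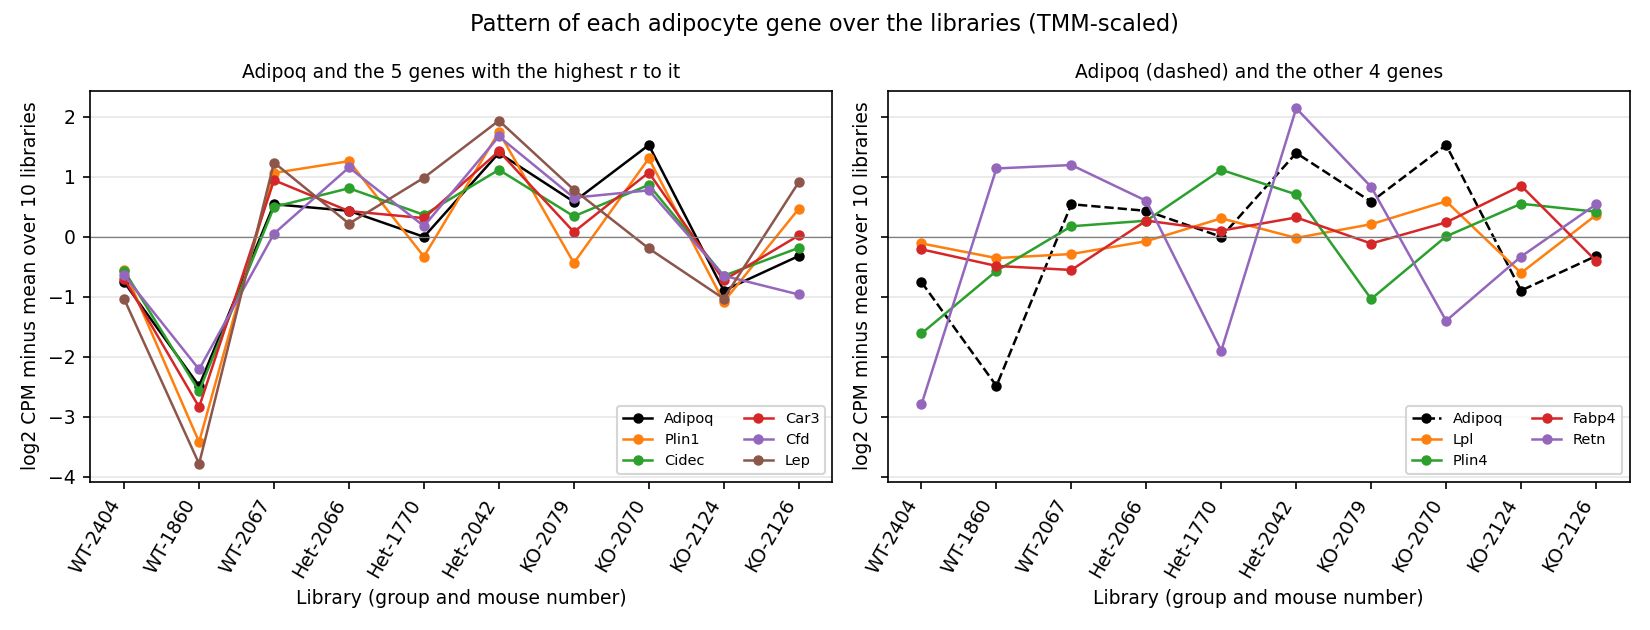
log2 CPM (TMM-scaled) of each adipocyte gene minus its mean over the 10 libraries, by library, with lines that only link the points of a gene. On the left, Adipoq, Plin1, Cidec, Car3, Cfd and Lep dip together in WT-1860 and are above their means in Het-2042; on the right, Lpl, Plin4, Fabp4 and Retn depart from the dashed Adipoq line.

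Ratios of counts within a library do not depend on the scaling. Car3 had 3.73 (KO-2079) to 6.98 (WT-2067) counts per Adipoq count, a span of 1.87 times over the 10 libraries, and Cidec 0.574 (KO-2070) to 1.18 (Het-2066), a span of 2.06 times. Cfd spanned 2.79 times, from 0.979 in KO-2070 to 2.73 in Het-2066. Plin1 spanned 3.60 times and Lep 7.74 times. Fabp4 had 8.30 (KO-2070) to 81.1 (WT-1860) counts per Adipoq count, and Lpl 14.9 (Het-2042) to 174 (WT-1860), spans of 9.78 and 11.7 times. Plin4 spanned 11.6 times and Retn 94 times. The highest ratios of Fabp4, Lpl, Plin4 and Retn were all in WT-1860, where they rest on 7 counts of Adipoq. Adipoq itself spanned 16.2 times in TMM-scaled CPM and 8.10 times by library size alone. WT-1860, the library of lowest depth, had the fewest counts of Adipoq, Plin1, Cidec, Lep, Cfd and Car3, while its Lpl and Fabp4 levels were within or next to the range of the other WT libraries with TMM.

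The mean log2 CPM of Adipoq, Plin1 and Cidec was used as a reference pattern, and all 13685 other genes tested were ranked by Pearson's r with it over the 10 libraries. These correlations are a description of 10 libraries that share their depth and makeup across genes. Car3 ranked 1st with r of 0.981, Cfd ranked 5 with 0.914 and Lep 56 with 0.824. Lpl ranked 2172 (0.509), Plin4 3653 (0.359), Fabp4 4512 (0.262) and Retn 5501 (0.137). Car3 also ranked 1 with Spearman's rho, with deviations from group means and by library size alone. Outside the set, the 10 genes with the highest r were Alox8 (0.925), Zfp191 (0.925), Panx2 (0.918), Cyb5a (0.913), Tnfsf15 (0.910), Tmem192 (0.895), Slc48a1 (0.888), Pcmt1 (0.883), Cul4b (0.882) and Dpp7 (0.881). Alox8, Panx2 and Tnfsf15 had at most 34 counts in any library. Of these 10, 4 stayed among the 10 highest with deviations from group means, 3 by library size alone and 1 with Spearman's rho. None of the 10 was on a list of other adipocyte genes.

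Other genes of adipocyte lipid handling and signalling were taken from 6 lists with 64 genes, of which 52 were tested. Their r with the reference pattern had a median of 0.263 and a highest value of 0.737, for the adiponectin receptor Adipor1, and 6 exceeded 0.5, beside 16.6% of all genes. In KO against WT, 33 of the 52 had positive estimates, beside 51.8% of all genes, and 19 negative ones. Their median log2 fold change was 0.18. With an unadjusted p under 0.05 there were 8 higher, beside 9.6% of all genes, and 4 lower, beside 13.9%, and 0 passed after adjustment in edgeR. DESeq2 called 3 higher, Gpam, Slc27a1 and Mgll, and 1 lower, Plin2, beside 7.37% of all genes in either direction. With TMM, 12 of the genes named from these lists below had positive and 11 negative estimates. By library size alone the KO mean lay below the WT mean for 9 of the 12, all but Gpam, Slc27a1 and Acvr1c, and for all 11. In Het against WT 4 were higher and 1 lower at an unadjusted p under 0.05, beside 8.26% and 11.6% of all genes.

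Among 12 genes of lipolysis and the droplet, the monoglyceride lipase Mgll was at 33.5 ± 12.6 CPM in WT and 59.9 ± 9.22 in KO libraries, with ranges apart (SD, n = 3 and 4; log2 fold change 0.84, SE 0.27, adjusted p = 0.125 by edgeR). Caveolin Cav1 had 0.63 (SE 0.23, adjusted p = 0.140 by edgeR). Plin2, the perilipin of most non-adipose cells, was at 40.8 ± 27.9 CPM in WT and 12.6 ± 6.46 in KO libraries (SD, n = 3 and 4), with -1.68 (SE 0.46, adjusted p = 0.116 by edgeR), and Cidea had -1.49 (SE 0.84, adjusted p = 0.293 by edgeR). Of 8 tested genes of triglyceride synthesis, Gpam, which makes the first committed step, was at 10.01 ± 6.39 CPM in WT and 27.2 ± 3.17 in KO libraries (SD, n = 3 and 4; 1.46, SE 0.38, adjusted p = 0.116 by edgeR). Lpin1 had 0.58 (SE 0.44), Dgat2 -0.76 (SE 0.32) and Gpd1 -0.16 (SE 0.27), all with adjusted p of 0.177 or more.

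Of 10 adipogenic transcription factors, Ebf2 had 0.79 (SE 0.34), Rxra 0.45 (SE 0.22), Pparg, the master regulator of fat cell formation, -0.85 (SE 0.41) and Ebf1 -0.17 (SE 0.26), with adjusted p-values of 0.187 to 0.726 in edgeR. Of 10 genes of uptake and insulin response, 4 were higher at an unadjusted p under 0.05, beside 9.6% of all genes. Their summed level was 84.0 to 114 CPM in WT and 150 to 201 in KO libraries, and by library size alone 99.9 to 297 and 89.9 to 274. The fatty acid transporter Slc27a1 was at 31.9 ± 10.3 CPM in WT and 64.5 ± 13.9 in KO libraries (SD, n = 3 and 4; 1.02, SE 0.27, adjusted p = 0.116 by edgeR), and Acsl1 had 0.95 (SE 0.33, adjusted p = 0.132 by edgeR). Fabp5 had -0.34 (SE 0.23) and the insulin-responsive glucose transporter Slc2a4, with 1 to 40 counts, -0.79 (SE 0.71). Of 9 tested adipokine and receptor genes, Acvr1c had 1.28 (SE 0.65), Adipor1 0.43 (SE 0.24), Lepr -0.62 (SE 0.28) and Aoc3 -0.60 (SE 0.33). By library size alone, 0 of the 52 genes tested from all 6 lists had KO ranges wholly above WT, beside 0.256% of all genes. KO ranges lay wholly below WT for 7 of the 52, beside 5.64% of all genes. Brown fat markers were scarce. Ucp1, which makes heat in brown fat, had 0 to 2 counts, Elovl3 and Zic1 0 in every library, and of the 3 tested, Ppargc1a had 0.67 (SE 0.35), Prdm16 0.07 (SE 0.18) and Dio2 -1.35 (SE 0.62).

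Markers of other cells in the piece are given beside these values, for KO against WT, where 9.6% of all genes were higher and 13.9% lower at an unadjusted p under 0.05. Positive estimates were found for 51.8% of all genes in that comparison. The 10 macrophage markers (Adgre1 and others) were all lower in KO than in WT at an unadjusted p under 0.05, with summed levels of 471 to 1917 CPM in WT, 253 to 384 in Het and 145 to 540 in KO libraries, and none was at 0 throughout. The 10 endothelial markers (Pecam1 and others) summed to 110 to 176 CPM in WT, 147 to 166 in Het and 106 to 208 in KO libraries, and 1 was higher in KO at that p. The 11 fibroblast and preadipocyte markers (Pdgfra and others) summed to 852 to 2586 CPM in WT, 447 to 730 in Het and 410 to 804 in KO libraries, with 4 lower. Most of the WT sum was collagen, with Col1a1 averaging 605 CPM in WT and 102 in KO libraries and Col1a2 549 and 123. Of the 11, 4 had positive and 7 negative estimates in KO against WT. The 10 lymph node markers (Cd79a and others) summed to 22.3 to 46.1, 10.3 to 11.9 and 3.53 to 28.8 CPM, with 3 lower. The 6 mesothelial markers (Msln and others) summed to 107 to 190, 69.7 to 122 and 51.6 to 104 CPM, with 2 higher and 1 lower. Most of the WT mesothelial sum was Krt19, which averaged 127 CPM in WT, 64.9 in Het and 41.1 in KO libraries. The mesothelial sum thus mainly follows Krt19 and does not stand for the 6 markers together. Of the 6 markers, 4 had positive estimates in KO against WT. The 8 skeletal muscle markers (Acta1 and others) summed to at most 3.28 CPM, with Myh4 at 0 in every library. The 26 digestive enzymes (Ctrb1 and others) all had positive estimates in KO against WT, with 1 higher at that p, and 9 of the 10 islet genes (Ins1 and others) did, with 0 at that p. These estimates hold with TMM. The islet sum averaged 3095 CPM in WT and 5339 in KO with TMM, but 4447 and 4453 by library size alone. The endothelial sum averaged 137 and 166 CPM with TMM, and turned to 272 and 150 by library size alone. The part of these cells, and of the share of digestive enzyme counts, in the levels of Lpl, Fabp4, Plin2 and the other genes was not tested.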

How the data were processed

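RNA sequencing of 10 pieces of pancreas tail, 1 per mouse, was analysed. Per the labels' protocols, frozen tissue was pulverised and RNA isolated with a column kit. The authors deposited raw counts per gene symbol, with 1 column per mouse and 0 columns left unused. The submitters' processing notes name DRAGEN, STAR, Cufflinks and mm10, without their roles, and the counting tool and its use of strand are not given in the sources used here. Levels per kb divide by the longest transcript that GENCODE vM21 tags as principal. A further part of the genotype, shared by all groups, is not reported here. Reads outside genes (2.59% to 8.71% of each library) and ambiguous reads stayed out of library sizes.

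Genes passing filterByExpr (minimum count of 10) were tested with edgeR 4.0.16 (TMM factors, glmQLFit robust, glmQLFTest, two-sided) in 1 fit over WT, Het and KO, without covariates, with Benjamini-Hochberg adjustment over all 13688 and a threshold of 0.05. The code of the fit was run on simulated counts with 1 spread shared by all genes. Spread differs between genes in these data, so that run does not measure the error rates here. DESeq2 1.42.0 was an alternative, beside other scalings, another filter and leaving out each library. Chi-square per degree of freedom between libraries of a group was 28.7 to 1041, so each counted once. Depth was 11718559 to 19024351 gene counts, and 3 counts, the floor for an undetected gene, correspond to 0.158 to 0.256 CPM unscaled.

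The 10 genes and all lists were chosen with earlier results of these data known. Besides them, the text names up to 2 genes in each direction with the smallest p in KO against WT from each other adipocyte list, the 10 genes outside the set most like the reference pattern, and the first marker, and any at 0 throughout, of each cell type. Krt19, Col1a1 and Col1a2 are named because they supplied most of a summed marker level in WT libraries. Ptrf, Agpat9 and Tusc5 are the table's symbols for Cavin1, Gpat3 and Trarg1.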

Additional observations from a re-analysis of the deposited data

How the results depend on the processing

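Comparisons with WT depended on the scaling. By library size alone, 2835 genes passed for KO against WT and 3125 for Het against WT, and the median of the 10 adipocyte genes was -0.51 in KO against WT, 0.11 in Het against WT and -0.26 in the slope. KO against WT then read -0.17 for Adipoq, -0.70 for Plin1, -0.15 for Plin4, -0.51 for Cidec, -0.44 for Lep, -0.93 for Lpl, -0.51 for Fabp4, -0.37 for Cfd and -0.56 for Car3. Het against WT read -1.11 for Lpl, -0.79 for Fabp4 and -0.16 for Retn, and KO against Het 0.28 for Fabp4. With only the compared groups, KO against Het was 0.0025 for Fabp4, and Retn failed the filter except in Het against WT. DESeq2 called 1009 genes in KO against WT, 400 in Het against WT and 436 in the slope, and left the adjusted p of Retn undefined in KO against WT and those of Plin1, Lep and Retn in Het against WT. With counts outside the digestive enzymes as the denominator, the 10 genes summed to 464 CPM in WT, 551.0 in Het and 544 in KO, and without Lpl and Fabp4 to 78.0, 149 and 98.3. By library size alone the 10 summed to 253 in WT and 149 in Het. Likeness to the reference pattern as deviations from group means was -0.0105 for Plin4 and -0.14 for Fabp4. The denominator by library size alone, for levels, likeness and the other lists, was chosen after seeing the data. Of 150 fold changes of the 10 genes under settings that kept all libraries, 13 changed sign, of 28 with only the compared groups 1, and of 200 with 1 library left out 15. The cause was not tested.

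Leaving out 1 library at a time, the genes passing ranged from 0 to 1933 in KO against WT, 0 to 1158 in Het against WT and 0 to 11 in the slope (the highest without WT-2067, WT-2067 and KO-2079), and of the 10 from 0 to 1 in Het against WT. The median of the 10 ranged from -0.0075 to 0.40 in the slope and from -0.83 (without KO-2070) to -0.24 (without Het-2042) in KO against Het, where library size alone gave -0.60. Het against WT ranged from -0.66 to 1.07 for Retn. KO against Het ranged from -0.83 to 0.24 for Adipoq, -0.33 to 0.15 for Fabp4, -0.0352 to 0.29 for Lpl and -1.40 to 0.32 for Retn. KO against WT ranged from -0.0928 to 1.58 for Car3, -0.13 to 1.91 for Lep, -0.17 to 1.39 for Plin1 and -0.97 to 0.14 for Retn. No paired analysis was possible because each mouse gave 1 library and the labels give no batch, litter or date. Counts of 1 to 47 per library limit Plin1, Lep and Retn.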
